A study of Mus musculus with 21 samples.

Results

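To describe how the injured brain changed between the subacute and the chronic phase under complement inhibition, gene expression in the right hemisphere of CR2-Crry-treated mice was compared between 28 and 7 days after traumatic brain injury (TBI). The comparison rests on 6 of the 21 samples of the series, 3 CR2-Crry TBI brains collected on day 28 and 3 on day 7, and sham brains and PBS TBI brains of the same days were used beside them. All animals were male C57BL6J mice. Injury was an open-head controlled cortical impact over the right parieto-temporal cortex, and sham mice (n = 3) were anesthetized and had the scalp incised. The first dose of CR2-Crry (16 mg/kg, intravenous) followed TBI by 1 h, and mice of the day 28 group received 3 further doses intraperitoneally, whereas those of the day 7 group had the first dose alone. PBS mice received vehicle on the same schedule. Mice were 13 weeks old in both day 7 groups and 16 weeks old in both day 28 groups, while the sham mice were 12, 13, and 16 weeks old. Time after injury, age, and number of doses therefore cannot be told apart in the day 28 to day 7 comparison.

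CR2-Crry is a fusion protein in which a fragment of complement receptor 2 carries the mouse complement regulator Crry to tissue where C3 activation products have been deposited, and Crry blocks the C3 convertases there. Complement starts with recognition molecules such as C1q, proceeds through C4 and C3, and releases the anaphylatoxins C3a and C5a, which act through receptors on microglia and infiltrating myeloid cells. In the injured brain, microglia are a known source of C1q, and their activation goes along with induction of phagocytic receptors, lysosomal enzymes, and genes driven by type I interferon. By in situ hybridization the paper also saw C1qa transcript with neurons of the injured area, and it proposes that neurons contribute to the C1q increase.

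Expression was measured with the NanoString nCounter Mouse Neuroinflammation panel, in which barcoded probes hybridize to chosen transcripts and are counted without amplification, and values are normalized counts on the authors' scale. Of 757 probes, 740 had a value over 20 in at least 3 of the 21 samples and were tested, and 53 of these lacked a gene symbol and go by a probe number. Totals per sample ran from 750585 to 1023041 counted molecules, and the lowest was that of CR2-Crry day 28 replicate 2. The median value over all 757 probes was 363.8, 368.7, and 369.9 in the day 7 samples and 339.0, 293.6, and 319.6 in the day 28 samples. All day 28 samples thus lay lower and replicate 2 lowest. Since the measurements are of whole hemispheres, fewer cells of a type and less RNA per cell cannot be told apart. The summed level of neuron markers (6 of 6 listed genes tested) was 35140 to 41270 on day 7 and 35050 to 36540 on day 28, that of 4 astrocyte markers 23350 to 24280 and 19590 to 20770, that of 4 microglia markers 4664 to 5255 and 3213 to 3766, and that of 4 oligodendrocyte markers 4909 to 5437 and 3647 to 4296. The sum of 3 endothelial markers went the other way, from 1575 to 1813 on day 7 to 1859 to 2182 on day 28, although none of the 3 was called. The choroid plexus marker Ttr was 2084 to 2431 and 2158 to 2850. Sums of markers of infiltrating monocytes and macrophages (231.9 to 300.6 and 205.3 to 236.8), T and NK cells (74.46 to 91.13 and 98.95 to 120.4), and the B cell marker Blk (6.38 to 22.45 and 9.93 to 19.79) were low on both days, and none of the neutrophil markers was tested by name. The part of cell composition in the changes described here was not tested.

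Between day 7 and day 28 in CR2-Crry TBI, most microglial, phagocytic, complement, interferon, and myelin genes tested by name fell. Neuronal, chromatin, and repair genes moved little and a small set of genes rose. Of the 740 tested probes, 185 were called at a limma adjusted p under 0.05 (25%), 165 lower (22.3%) and 20 higher (2.7%) on day 28. The median log2 change (day 28 against day 7, below 0 where day 28 was lower) was −0.52 among probes called lower and 0.681 among those called higher, against −0.062 over all tested probes. More than 2-fold changes were few, with 18 called probes lower and 7 higher. The 3 day 28 samples lay beyond the 3 day 7 samples in 179 of the called probes, against 282 of all tested probes (38.1%). The balance of the directions depended on scaling. When each sample was centred on its median probe, every log2 change shifted up by 0.232, and 76 probes were called lower (10.3%) and 255 higher (34.5%; 77% of calls higher, against 10.8% on the authors' scaling). With median-of-ratios scaling the shift was 0.072, and 129 were called lower (17.4%) and 54 higher (7.3%), so that 29.5% of calls were higher. All 76 probes lower after centring were among the 165, the 20 higher probes were called higher under both scalings, and no probe was called in opposite directions. Leaving out CR2-Crry day 28 replicate 2 lowered the number of lower calls to 113.

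**Figure D1:**
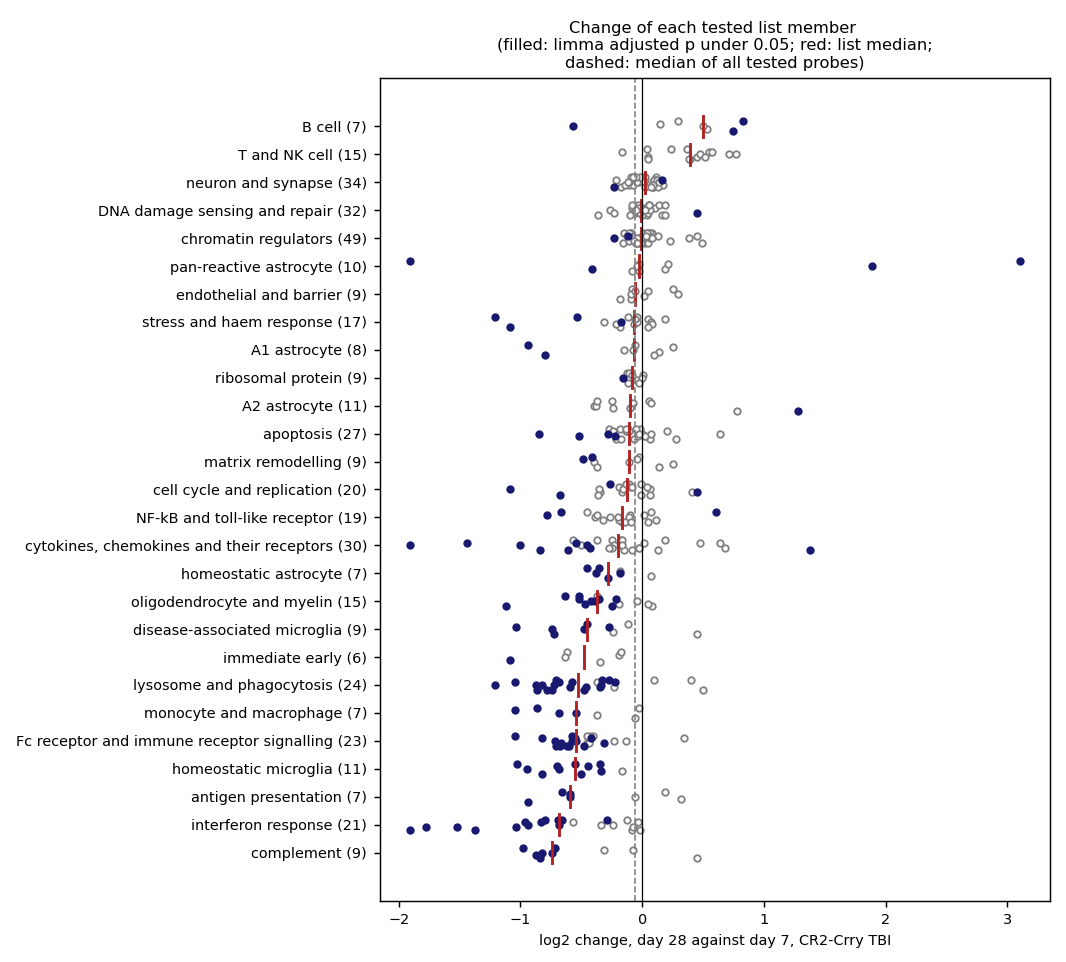
Log2 change between day 7 and day 28 in CR2-Crry TBI (x axis) of each tested member of 27 gene lists (y axis, number of tested members in parentheses), with filled points for limma adjusted p under 0.05, a red bar at the list median and a dashed line at the median of all tested probes. Complement, interferon, antigen presentation, homeostatic microglia, Fc receptor, monocyte and macrophage, and lysosome lists lie farthest to the left, with medians from −0.74 to −0.53, and the T and NK cell and B cell lists lie to the right at 0.39 and 0.50.

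Most complement genes tested by name were lower on day 28 than on day 7 in the treated hemisphere. Of 22 listed complement genes, 9 were tested by name and C6 was under the filter. The other 12, C3 among them, were not matched to a probe by name. Some of them may be among the probes without a symbol, so their course is not known here. Of the 9 tested genes 6 fell (66.7%, beside 22.3% of all tested probes) and 3 were not called. The list median was −0.74 against −0.062 over all tested probes. After median centring 6 were lower and 1, Itgax, was higher, beside 10.3% lower and 34.5% higher over all tested probes. The C1q chains, which together form the recognition unit of the classical pathway, moved in parallel. C1qa was 5952, 5933, and 6672 on day 7 and 4465, 3033, and 3939 on day 28, where the sham samples had 936, 860.1, and 1259.9. All day 28 values lay below all day 7 values and above all sham values. C1qa was thus 1.64-fold lower on day 28 (log2 −0.71, SE 0.14, n = 3 per group, limma adjusted p = 0.000852), C1qb 1.67-fold lower (−0.74) and C1qc 1.79-fold lower (−0.84).

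The anaphylatoxin receptors fell most among the complement genes tested by name. C3ar1, the receptor for C3a, was 746, 778, and 949 on day 7 and 479.6, 316, and 472 on day 28, a 1.98-fold decrease (log2 −0.98, SE 0.16, n = 3 per group, limma adjusted p = 0.000188). C5ar1, the receptor for C5a, was 155, 151, and 157 on day 7 and 88, 76.2, and 89 on day 28 (log2 −0.87, SE 0.19). The day 28 samples were the lower in both genes without overlap, and for C3ar1 all of them exceeded the sham samples (88, 83, and 102), whereas for C5ar1 the highest sham sample (83.7) reached into the day 28 range. Itgam, the alpha chain of complement receptor 3, fell 1.77-fold (log2 −0.82, SE 0.14), from 617, 555, and 544 to 362, 277, and 334.

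The remaining complement genes tested by name were not called. C4a, a C4 gene whose near-identical copy C4b may share its probe so that its identity is uncertain, was 2296, 2542, and 2529 on day 7 and 2279, 1521, and 2235 on day 28 (log2 −0.31, SE 0.13, adjusted p = 0.106), with all day 28 samples below the day 7 range but only replicate 2 well below it. It was still 2.71 above sham on the log2 scale on day 28. Serping1, the inhibitor of C1, had overlapping values of 348, 407, and 392 and of 406, 270.4, and 431 (log2 −0.08, adjusted p = 0.773). Itgax, the alpha chain of complement receptor 4, was 60.6, 46.1, and 66.3 on day 7 and 82, 69.5, and 83.1 on day 28, so that all day 28 samples were higher, but the change missed the threshold (log2 0.45, SE 0.18, adjusted p = 0.0855). Against sham, all 9 genes were higher on both days in CR2-Crry TBI, with list medians of 2.35 on day 7 and 1.76 on day 28 on the authors' scaling. The distance from sham on day 28 was as small as 0.59 for C5ar1 and 0.98 for Itgam, and after centring 9 genes were higher than sham on day 7 (median 1.79) and 8 on day 28 (median 1.43). Over all tested probes, 355 were higher than sham on day 7 (48%) and 328 on day 28 (44.3%), and 76 (10.3%) were lower on each day. Centring moved these changes by −0.561 and −0.329 and gave 172 higher (23.2%) with 385 lower (52%) on day 7 and 172 higher (23.2%) with 295 lower (39.9%) on day 28.

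**Figure D2:**
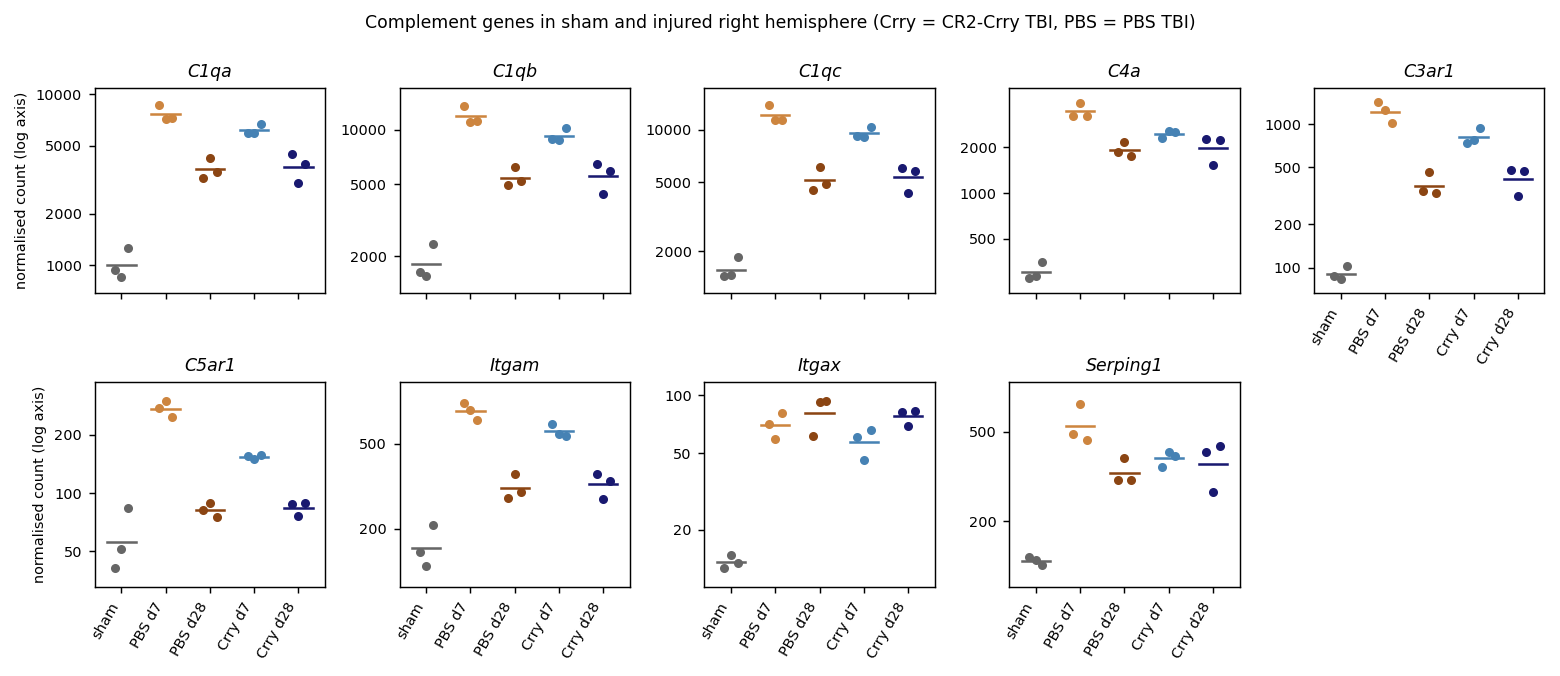
Normalized counts (y axis, log scale, 1 panel per gene) of the 9 tested complement genes in each sample of sham, PBS TBI and CR2-Crry TBI on days 7 and 28 (x axis), with points for samples and a bar at the geometric mean of a group. C1qa, C1qb, C1qc, C3ar1, C5ar1, and Itgam are lower on day 28 than on day 7 without overlap under CR2-Crry, while C4a is lower by less, Serping1 overlaps and Itgax is higher.

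The steepest decreases were in interferon response genes. Of 21 tested genes, 13 fell (61.9%, beside 22.3% of all tested probes), 8 were not called and none rose. The median was −0.69 against −0.062 over all tested probes. After centring 12 were lower and 2 higher, beside 10.3% lower and 34.5% higher over all tested probes. Cxcl10, an interferon-induced chemokine that attracts CXCR3-bearing T cells, was 413, 328, and 365 on day 7 and 98.2, 92.7, and 103 on day 28, against 23.6, 23.6, and 21.8 in sham. The 3 groups did not overlap, and the day 28 samples lay closely together. Cxcl10 was 3.75-fold lower on day 28 (log2 −1.91, SE 0.22, n = 3 per group, limma adjusted p = 7.86e-06), going from 16.0-fold to 4.26-fold above sham. Irf7, the transcription factor that amplifies the type I interferon response, was 338, 299.6, and 332 on day 7 and 102, 87.2, and 94 on day 28, which was 3.43-fold lower (log2 −1.78, SE 0.19, adjusted p = 4.38e-06). Again no day 28 sample reached the day 7 range, and sham samples were lower still at 45.6, 62.1, and 40.2.

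The nucleic acid sensor Zbp1 was 168, 111, and 188 on day 7 and 42.5, 50.8, and 69.3 on day 28 (log2 −1.52, SE 0.25). The antiviral protein Rsad2 (viperin) was 308, 286, and 402 on day 7 and 127, 124, and 129 on day 28 (log2 −1.38, SE 0.19). Both genes dropped in every day 28 sample relative to every day 7 sample, and both were still above sham. Slfn8, a member of the schlafen family, fell by 1.04 on the log2 scale, Ifitm3, which restricts viral entry, by 0.96, the immunoproteasome subunit Psmb8 by 0.94, Ddx58, which encodes the RNA sensor RIG-I, by 0.83, the guanylate-binding protein Gbp2 by 0.80 and Irf8, a transcription factor of microglia and other myeloid cells, by 0.69, each without overlap between the days. The signal of Ifitm3 may be shared with its close paralog Ifitm2, which was at −0.08 and not called. Not every gene of the pathway moved: the constitutive regulators Irf3 (log2 −0.03) and Irf2 (−0.02), the receptor chain Ifnar1 (−0.07) and the adaptor Mavs (−0.12) were not called, and neither were Irf1 (−0.24), Oas1g (−0.34), one of several near-identical copies, and the chemokine Cxcl9 (−0.57). The other receptor chain Ifnar2 fell by 0.29. On day 7 the list had 18 members above sham and 1 below with a median of 1.73, and on day 28 again 18 above and 1 below with a median of 0.89. After centring, 15 were above and 3 below on day 7 (median 1.16), and 14 above and 3 below on day 28 (median 0.56). Over all tested probes, 48% were above sham on day 7 and 44.3% on day 28, and 23.2% on each day after centring.

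The interferon-stimulated response element, bound by IRF transcription factors, has as its core a pair of GAAA with any 2 bases between them. Since the interferon list held the largest decreases, the promoters of its members were searched for this run of 10 bases, which on the opposite strand reads as TTTC with any 2 bases before a further TTTC, on both strands and with overlapping matches counted, from 250 bases before to 50 bases after each RefSeq start (build GRCm38.p6). Of the 21 genes, all but Zbp1 were matched to the promoter table, and 10 of these 20 held a match (50%), against 3.99% of 27025 genes in the table and 7.39% of the 555 tested panel genes in it. A match is a description of these letters alone. The 250 bases before the start are shown for Cxcl10, Rsad2, and Gbp2, which fell and each hold 1 match, at different distances and in both orientations. They lie at chr5:92348890-92349139 on the minus strand, chr12:26456453-26456702 on the minus strand and chr3:142620413-142620662 on the plus strand, and are written 5′ to 3′ on the strand of the gene with the match in capitals.
Cxcl10: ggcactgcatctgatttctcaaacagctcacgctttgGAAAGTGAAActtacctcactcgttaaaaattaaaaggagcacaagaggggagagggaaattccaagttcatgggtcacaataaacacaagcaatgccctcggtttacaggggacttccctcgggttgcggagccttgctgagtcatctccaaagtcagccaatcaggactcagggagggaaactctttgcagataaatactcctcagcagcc
Rsad2: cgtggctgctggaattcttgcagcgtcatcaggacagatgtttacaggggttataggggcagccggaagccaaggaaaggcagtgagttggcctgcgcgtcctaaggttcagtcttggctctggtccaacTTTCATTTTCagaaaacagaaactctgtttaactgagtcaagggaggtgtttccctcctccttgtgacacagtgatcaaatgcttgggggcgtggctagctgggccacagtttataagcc
Gbp2: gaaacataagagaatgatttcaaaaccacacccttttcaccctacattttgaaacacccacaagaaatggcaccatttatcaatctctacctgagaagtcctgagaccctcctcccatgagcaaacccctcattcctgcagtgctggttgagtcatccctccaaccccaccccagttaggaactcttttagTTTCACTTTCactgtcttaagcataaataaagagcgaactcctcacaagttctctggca
The match begins 213 bases before the start in Cxcl10 on the strand of the gene, and 120 bases before in Rsad2 and 59 bases before in Gbp2 on the other strand. Of the 10 interferon genes with a match 7 fell, and of the 10 without a match 5 fell, among them Irf7. Over all panel genes called lower and present in the table, 12 of 119 held a match (10.1%).

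**Figure D3:**
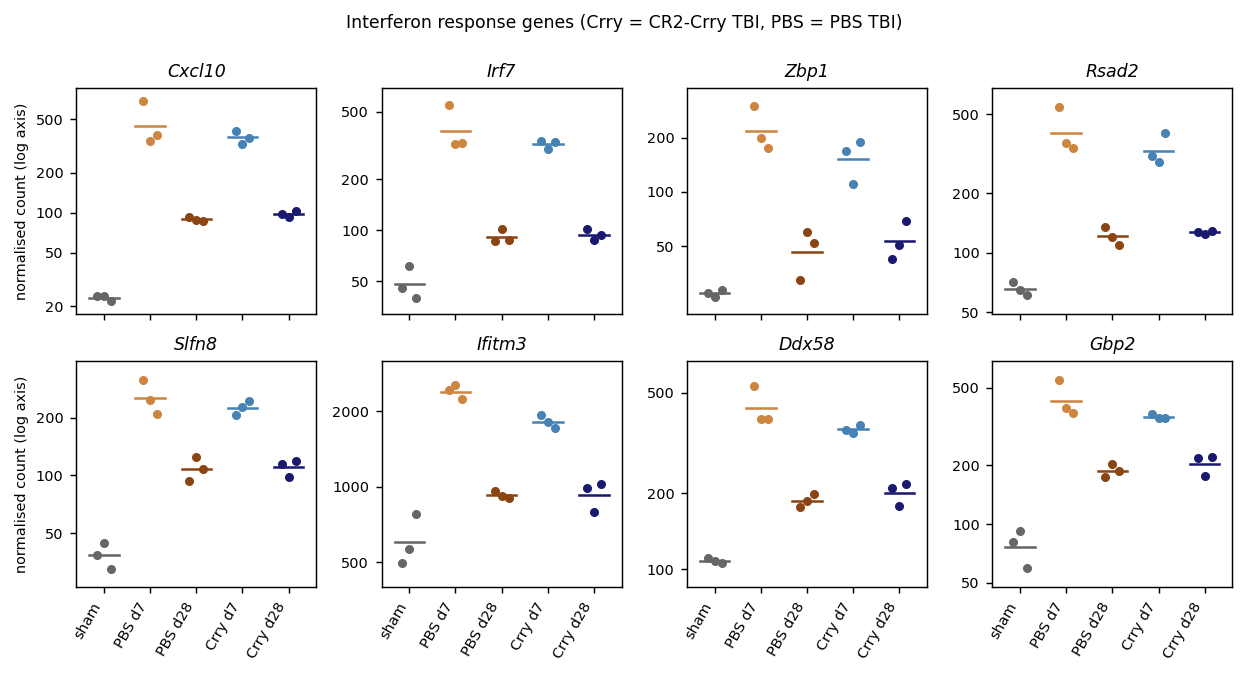
Normalized counts (y axis, log scale) of 8 interferon response genes in each sample of the 5 groups (x axis), with points for samples and a bar at the geometric mean. In each panel the CR2-Crry day 28 samples lie below all CR2-Crry day 7 samples, by 3.75-fold for Cxcl10 and 1.74-fold for Gbp2. Cxcl10, Irf7, Zbp1, Rsad2, and Slfn8 were named by a rule that requires this separation.

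Microglial identity genes fell together. Of 11 tested homeostatic microglia genes 10 fell (90.9%, beside 22.3% of all tested probes) and 1 was not called, with a median of −0.55. After centring 7 were lower and none higher, beside 10.3% lower and 34.5% higher over all tested probes. Fcrls, an Fc receptor-like molecule found on mouse microglia, was 1924, 1837, and 2052 on day 7 and 1094, 820.1, and 957 on day 28 (log2 −1.03, SE 0.14, n = 3 per group, limma adjusted p = 4.21e-05). Tmem119, a membrane protein that separates microglia from other macrophages, was 923, 816, and 839 on day 7 and 532, 489, and 585 on day 28 (log2 −0.68, SE 0.09). Day 28 samples were the lower ones in both genes with no overlap. The lysophosphatidylserine receptor Gpr34 fell by 0.94, the secreted glycoprotein Olfml3 by 0.83, Csf1r, the receptor on which microglia depend for survival, by 0.70, the purinergic receptor P2ry12 by 0.55, the fractalkine receptor Cx3cr1 by 0.50 and the transcription factor Sall1 by 0.34. On day 28 Cx3cr1 was still 1.11 above sham on the log2 scale and P2ry12 0.58 above it.

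Genes of disease-associated microglia had 6 of 9 lower (66.7%, beside 22.3% of all tested probes) and none higher (median −0.46). The 6 became 3 when either day 7 replicate 2, day 7 replicate 3, or day 28 replicate 2 was left out. After centring 3 were lower and 1 higher, beside 10.3% lower and 34.5% higher over all tested probes. Trem2, the lipid-sensing receptor of phagocytic microglia, was 1814, 1787, and 2060.1 on day 7 and 1282, 925, and 1195 on day 28 (log2 −0.75, SE 0.11, adjusted p = 6.00e-05), and its signalling adaptor Tyrobp fell by 0.72. Neither gene overlapped between the days, and Trem2 was 2.27 above sham on day 28. The growth factor Igf1 was at −0.48 and Ch25h, which makes 25-hydroxycholesterol, at −1.04, and both calls were lost without day 7 replicate 2, day 7 replicate 3, or day 28 replicate 2 (adjusted p = 0.0593 to 0.181). The apolipoprotein Apoe (−0.12) was not called.

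Lysosome and phagocytosis genes were lower in 19 of 24 cases (79.2%, beside 22.3% of all tested probes) and never higher (median −0.53). After centring 13 were lower and 3 higher, beside 10.3% lower and 34.5% higher over all tested probes. Grn, which encodes the lysosomal and secreted protein progranulin, was 3497, 3442, and 3679.8 on day 7 and 1686, 1289, and 1650.5 on day 28, against 720.1, 707, and 816 in sham. The 3 groups were fully separated, and Grn was 2.31-fold lower on day 28 (log2 −1.21, SE 0.11, n = 3 per group, limma adjusted p = 1.14e-06). Lgmn, an asparaginyl endopeptidase of the lysosome, was 5239.5, 5286, and 5329 on day 7 and 3747, 3249.6, and 3647 on day 28 (log2 −0.58, SE 0.06), and the cysteine protease cathepsin S (Ctss) fell by 0.60. The NADPH oxidase subunit Ncf1 fell by 0.87, and the toll-like receptor Tlr2 by 0.78, which was at −0.57 and no longer called (adjusted p = 0.0626) without day 28 replicate 2.

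Fc receptor and immune receptor signalling genes were lower in 15 of 23 cases (median −0.55), and 10 were lower and 1 higher after centring. For this and the next 2 lists, 22.3% of all tested probes fell and 2.7% rose. After centring, 10.3% of all tested probes were lower and 34.5% higher. Fcgr1, the high-affinity receptor for IgG, was 684, 662, and 724 on day 7 and 349, 294, and 361 on day 28, and its signalling chain Fcer1g was 1008, 1008, and 1158 on day 7 and 719, 469, and 633 on day 28. All day 28 samples were below the day 7 samples, with log2 changes of −1.05 (SE 0.14) and −0.82 (SE 0.13). The inositol phosphatase Inpp5d (SHIP1) and the Rac activator Dock2 fell by 0.58 and 0.60. Of 7 antigen presentation genes 4 fell (Psmb8, Ifi30, Ctss, and the costimulatory molecule Cd86 at −0.59), while the invariant chain Cd74 was 616, 758, and 755 on day 7 and 907, 617, and 928 on day 28 and was not called (log2 0.19). After centring 4 were lower and 2 higher. Monocyte and macrophage genes had 4 of 7 lower (median −0.54), 2 without day 28 replicate 2 and 2 after centring, and the chemokine receptor Ccr2 (−0.02) and the scavenger receptor Cd163 (−0.06) were not called.

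Among cytokines, chemokines, and their receptors, 8 of 30 genes fell (26.7%) and 1 rose (3.33%), close to the 22.3% lower and 2.7% higher over all tested probes (list median −0.20). These counts were 4 lower without day 28 replicate 2, 2 higher without day 7 replicate 2, and 3 lower with 4 higher after centring. Ccl5, which attracts T cells and monocytes, was 147, 191, and 106 on day 7 and 54.6, 36.4, and 74.2 on day 28 (log2 −1.44, SE 0.34, adjusted p = 0.00363). Ccl3, also called MIP-1 alpha, was 285, 266, and 326 on day 7 and 165, 129, and 144 on day 28 (a 2.0-fold decrease, SE 0.18 on the log2 scale). Both chemokines were lower in all day 28 samples, yet on day 28 they were 2.17 and 2.50 above sham on the log2 scale. Tnf and Il1b, the classical inflammatory cytokines, were low and not called, Tnf at 23.4, 32.5, and 21.4 on day 7 and 51.6, 36.4, and 32.6 on day 28 (log2 0.64, adjusted p = 0.0815), and Il1b at 0.68 (adjusted p = 0.231).

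Among stress genes, Hmox1, which degrades haem, was 312, 369, and 424 on day 7 and 205, 121, and 159 on day 28, a 2.31-fold decrease (log2 −1.21, SE 0.17, n = 3 per group, limma adjusted p = 3.85e-05). Atf3, a transcription factor induced by injury, was 222, 253, and 285 on day 7 and 178, 71.8, and 131 on day 28 (log2 −1.09, SE 0.25). The days did not overlap in either gene, and the day 28 samples of Atf3 were the more dispersed. Of the 17 stress and haem genes 4 fell (23.5%, beside 22.3% of all tested probes), or 2 lower and 7 higher after centring. Top2a, a topoisomerase of dividing cells, was 159.6, 131, and 161 on day 7 and 92.1, 66.2, and 57.4 on day 28 (log2 −1.09, SE 0.21), at which time it was 0.50 above sham and not called (adjusted p = 0.0528). Of 20 cell cycle genes 3 fell (15% of the list: Top2a, the ribonucleotide reductase subunit Rrm2 at −0.67 and the replication helicase subunit Mcm6 at −0.27) and 1 rose (the helicase Blm), and 2 were lower and 2 higher after centring. Rrm2 lost its call without day 7 replicate 3 (−0.53, adjusted p = 0.0593), and Mcm6 lost its call without any 1 of the 6 samples. Cd72, an inhibitory receptor of B cells and myeloid cells, was 255, 229, and 263 on day 7 and 136, 86.1, and 137 on day 28 (log2 −1.09, SE 0.17). Of 27 apoptosis genes 4 fell (14.8%, beside 22.3% of all tested probes), with 1 lower and 6 higher after centring. Of those that fell, Bcl2a1a, a survival gene with near-identical copies, was at −0.85. Among 19 NF-kB pathway and toll-like receptor genes 2 fell (10.5%), Tlr2 and Tlr7 (−0.67), and 1 rose (5.26%, beside 2.7% of all tested probes), Traf1. These counts were 1 lower without day 28 replicate 2, none higher without day 7 replicate 1, and 2 lower and 4 higher after centring. After centring, 10.3% of all tested probes were lower and 34.5% higher.

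Of 15 tested oligodendrocyte and myelin genes 10 fell (66.7%, beside 22.3% of all tested probes) and none rose (median −0.37). After centring 3 were lower and none higher, beside 10.3% lower and 34.5% higher over all tested probes. Enpp6, a phosphodiesterase that marks newly forming oligodendrocytes, was 321, 344, and 305 on day 7 and 170.0, 145, and 133 on day 28, against 148, 128, and 116 in sham. The day 28 samples were all below the day 7 samples and overlapped with sham. Enpp6 was 2.18-fold lower on day 28 than on day 7 (log2 −1.12, SE 0.14, n = 3 per group, limma adjusted p = 1.47e-05) and 0.19 above sham (adjusted p = 0.248). Mog, a myelin surface glycoprotein, was 1956, 1888, and 1943 on day 7, 1331, 1238, and 1168 on day 28 and 1351, 1263, and 1029 in sham (log2 −0.63, SE 0.09). Cnp, an enzyme of non-compact myelin, fell by 0.52, Ugt8a and Gal3st1, which make the myelin lipids galactocerebroside and sulfatide, fell by 0.52 and 0.47, and the myelin-associated glycoprotein Mag by 0.42. After centring, Enpp6 (−0.89), Mog (−0.40), and Cnp (−0.28) were the 3 that stayed called. Opalin, a membrane protein of mature oligodendrocytes, was 1153, 1116, and 884 on day 7 and 1196, 1132, and 997 on day 28 and was not called (log2 0.08). Against sham, 14 of the 15 genes were higher on day 7 (median 0.53) and 6 on day 28 (median 0.21) on the authors' scaling. Over all tested probes 48% were higher on day 7 (median 0.238) and 44.3% on day 28 (median 0.21). The list was thus near all probes on day 28. After centring, 3 were higher and 2 lower than sham on day 7 (median −0.03), and 2 higher and 4 lower on day 28 (median −0.12). Over all tested probes, centring gave 23.2% higher with 52% lower on day 7 and 23.2% higher with 39.9% lower on day 28.

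Astrocyte genes split. Homeostatic astrocyte genes had 5 of 7 lower (71.4%, beside 22.3% of all tested probes; median −0.28), and 3 without day 7 replicate 2 or day 28 replicate 2. After centring none was lower and 1 higher, beside 10.3% lower and 34.5% higher over all tested probes. The potassium channel Kcnj10 was at −0.45, the folate enzyme Aldh1l1 at −0.35, the gap junction protein Gja1 at −0.28, and the glutamate transporter Slc1a3, at −0.18, lay at 0.05 after centring and was not called there. Pan-reactive astrocyte genes had 2 of 10 lower (20%, beside 22.3% of all tested probes), Cxcl10 and the intermediate filament Vim. Another 2 were higher (20%, beside 2.7% of all tested probes), Lcn2 and Steap4, and after centring 1 was lower and 3 were higher. Only 1 was called higher without any 1 of the 6 samples other than day 28 replicate 2, and 1 was called lower without day 7 replicate 1 or 3 or day 28 replicate 2. Vim was 3594, 3498, and 3926 on day 7 and 2983, 2206, and 3198 on day 28 (log2 −0.41, SE 0.13), and it was not called without day 7 replicate 1, day 7 replicate 3 or day 28 replicate 2 (adjusted p = 0.0602 to 0.207). The metalloproteinase inhibitor Timp1 (−0.03), the hyaluronan receptor Cd44 (−0.04), and the serine protease inhibitor Serpina3n (0.21) were not called. Of 8 tested genes of the A1 reactive astrocyte list 2 fell (25%), Psmb8 and Gbp2, and 2 were lower and 3 higher after centring. Of 11 on the A2 list 1 rose (9.09%), Slc10a6, and 4 were higher and none lower after centring. The A2 count was 0 without day 7 replicate 2 and 2 without day 28 replicate 2 or 3.

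Neuronal, chromatin, repair, and ribosomal genes were near 0 on the authors' scaling, and their counts turned with centring. Over all tested probes, 22.3% fell and 2.7% rose, and after centring 10.3% were lower and 34.5% higher. Of 34 neuron and synapse genes 1 rose and 1 fell (median 0.03), and after centring 19 were higher and none lower. Without day 7 replicate 1, 3 were called higher, and without day 7 replicate 3, 2 were called lower. Rab6b, a neuronal GTPase of Golgi transport, was 5467, 5365, and 5092 on day 7 and 6020.5, 6059.8, and 5764 on day 28 (log2 0.16, SE 0.04), against 7011, 6962, and 7087 in sham, so that the day 28 samples lay between the other groups. Tubb4a, a tubulin of neurons and oligodendrocytes, fell by 0.23 and was at 0.00 after centring. Of 49 chromatin regulators none rose and 2 fell, the acetyltransferase Kat2b and the methyl-CpG-binding Mbd2 at −0.23 and −0.12, with 1 or none of them called without some 1 sample (none without day 28 replicate 3), and 34 were higher and none lower after centring. Of 32 repair genes 1 rose (2 without day 7 replicate 2 and 14 after centring), and of 9 ribosomal protein genes 1 fell, Rpl29 at −0.16 (2 fell without day 28 replicate 1 or 3), whereas 5 were higher and none lower after centring. No endothelial gene of 9 was called, and 2 were higher after centring.

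The largest increases on day 28 were those of Lcn2, of a probe without a symbol (probe_76), and of Steap4. Lcn2 encodes lipocalin 2, an iron-siderophore-binding protein of reactive astrocytes and neutrophils. It was 321, 310.0, and 357 on day 7 and 4668, 1063, and 4549.6 on day 28, and 34.6, 168, and 2687 in sham. All day 28 samples were above all day 7 samples, but 1 sham sample lay above 1 of the day 28 samples and all day 7 samples. The 8.59-fold change (log2 3.10, SE 1.00, n = 3 per group, limma adjusted p = 0.0275) lost its call when any 1 of the day 7 samples or day 28 replicate 1 or 3 was left out (adjusted p = 0.0619 to 0.0907), and was 3.81 (0.0183) without day 28 replicate 2. Steap4, a metalloreductase of iron and copper, was 69.1, 77.5, and 48.1 on day 7 and 344, 119, and 319.6 on day 28, against 19.6, 20.1, and 36 in sham. The groups did not overlap, and the change of 1.89 (SE 0.42, adjusted p = 0.00231) ranged from 1.62 to 2.38 with each sample left out in turn and stayed called. The probe without a symbol, probe_76, was singled out after its values were seen and was 243, 259, and 335 on day 7 and 1778, 620.3, and 1459 on day 28 (log2 2.09, SE 0.38, adjusted p = 0.000442), with 26.7, 28, and 22.6 in sham. Which gene probe_76 measures is not known, and it may be one of the listed genes not matched by name, such as C3. In Lcn2, Steap4, and probe_76 day 28 replicate 2 was the lowest of the day 28 samples.

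Il1r2 and Trem1, both at low levels, were also higher on day 28. Il1r2, a decoy receptor that binds interleukin 1, was 11.7, 15.7, and 16 on day 7 and 45.5, 39.7, and 28.7 on day 28 (log2 1.38, SE 0.23, adjusted p = 0.000234). Trem1, an amplifying receptor of neutrophils and monocytes, was 8.51, 11.5, and 9.62 on day 7 and 29.3, 25.4, and 16.8 on day 28 (log2 1.24, SE 0.30, adjusted p = 0.00489). The day 28 samples exceeded all day 7 samples in both genes and the sham samples, which were 24.4, 23.6, and 26.8 for Il1r2 and 9.43, 9.61, and 13.4 for Trem1. At such levels a sample holds few counted molecules. Csf3r, the only tested gene of the neutrophil list, fell (log2 −0.54, SE 0.18, limma adjusted p = 0.0337). It lost its call after centring and without day 7 replicate 1 or 2 or day 28 replicate 2 or 3. The B lymphoid and dendritic cell transcription factor Spib was at 0.83 (adjusted p = 0.0058), the TNF receptor adaptor Traf1 at 0.60, which was 0.45 (adjusted p = 0.0741) without day 7 replicate 1, and the helicase Blm at 0.45. The values of Blm were 77.7, 80.7, and 82.3 on day 7 and 114, 108, and 107 on day 28. The neuronal signalling genes Prkar2b (0.18) and Fgf13 (0.18) rose by small amounts with little spread, and Slc10a6, a transporter of sulfated steroids, was called at 1.28 although its groups overlapped (13.8, 10.5, and 31 against 48.6, 43, and 30.7), and it was at 0.95 (adjusted p = 0.0523) without day 7 replicate 2. The other higher probes were Epsti1 (0.64), the sialyltransferase St8sia6 (0.32), the BAG family chaperone regulator Bag4 (0.15), the protein kinase A subunit Prkar2a (0.14), the kinase Mapk10 (0.12), probe_413 (1.05), and probe_159 (0.72), and each of them lost its call with some 1 of the 6 samples left out, up to an adjusted p of 0.208.

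The lymphocyte lists had median changes above that of all tested probes, but few of their genes were called. None of the 15 tested T and NK cell genes was called. Their levels were low, with mean values under CR2-Crry from 15.4 to 49.7, so their changes are imprecise. Their median was 0.39 against −0.062 over all tested probes, and 14 of the 15 changes were above 0. After centring, when 34.5% of all tested probes were called higher, 7 of the 15 were. On the authors' scaling 3 were called higher without day 7 replicate 2, and 1 without day 7 replicate 1 or day 28 replicate 3. Cd3e, a chain of the T cell receptor complex, was 10.6, 20.9, and 16 on day 7 and 27.3, 23.2, and 24.7 on day 28 (log2 0.71, SE 0.28, adjusted p = 0.0749), and the NK cell receptor Klrb1 was at 0.77 (adjusted p = 0.105). The days did not overlap for Cd3e, whose values lay close to the filter. Of 7 B cell genes 2 rose, Spib and Fcrla, and 1 fell, the adaptor Blnk (−0.57), which is also expressed by myeloid cells. Fcrla, an Fc receptor-like protein of B cells, was at 0.75 with overlapping groups and lost its call without day 7 replicate 1 or 2 or day 28 replicate 2 or 3 (adjusted p = 0.0974 to 0.118), and Blnk was at −0.48 and −0.38 and not called without day 7 replicate 1 and without day 28 replicate 2.

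**Figure D4:**
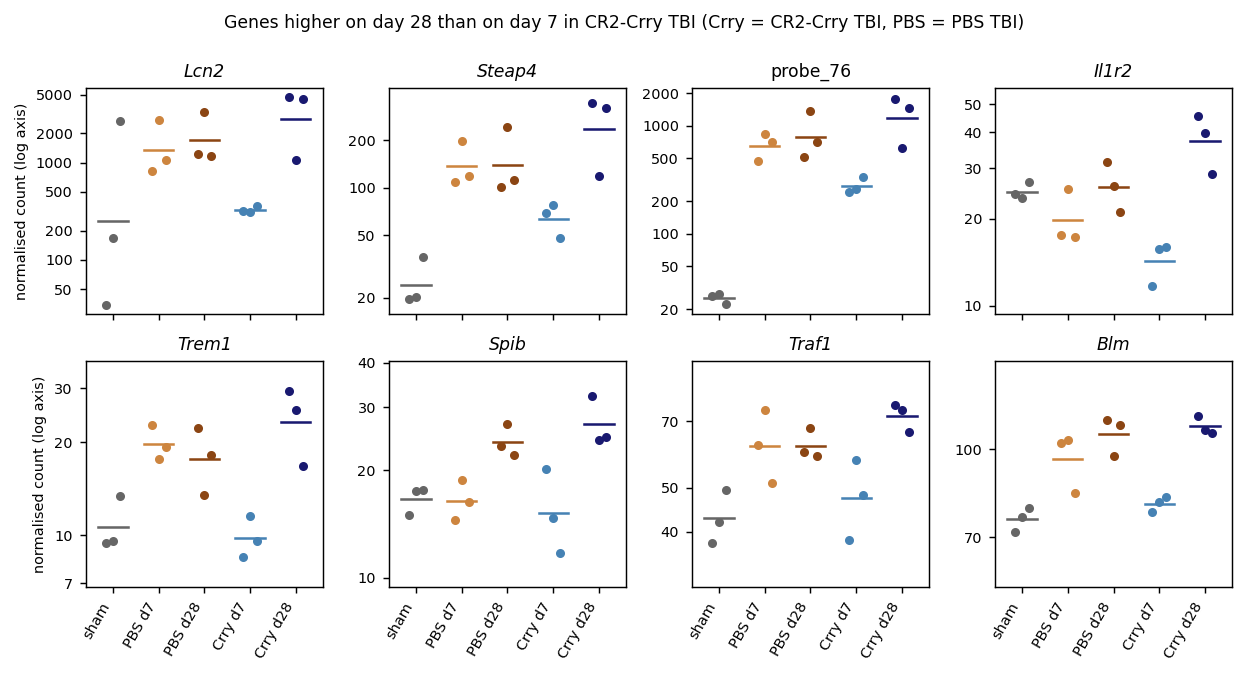
Normalized counts (y axis, log scale) of 8 probes that were higher on day 28 than on day 7 in CR2-Crry TBI, in each sample of the 5 groups (x axis), with points for samples and a bar at the geometric mean. Under CR2-Crry the day 28 samples lie above all day 7 samples in each panel, whereas sham samples spread from 34.6 to 2687 for Lcn2. The named genes were picked among called genes without overlap, so their separation follows from that choice.

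To ask how the course under complement inhibition compared with that under vehicle, the same contrast was made in PBS TBI, which shares no samples with it. In PBS TBI 334 probes were called (45.1%), 289 lower (39.1%) and 45 higher (6.08%), with a median of −0.155 over all tested probes. After centring 125 were lower (16.9%) and 346 higher (46.8%), and with median-of-ratios scaling 201 were lower (27.2%) and 152 higher (20.5%). Of the probes lower under CR2-Crry 93.3% were also lower under PBS (154 probes), which was 53.3% of those lower under PBS. Of the probes higher under CR2-Crry 6 (30%) were also higher under PBS, which was 13.3% of those. No probe was called in opposite directions, and across the 740 probes the changes had a correlation of 0.748, given as a description since probes of 1 sample are not independent. By list, PBS mice had 8 complement genes lower of 9 (median −1.13 against −0.74 under CR2-Crry), 18 interferon genes lower of 21 (−1.01 against −0.69), all 11 homeostatic microglia genes and 20 of 24 lysosome genes lower, and 10 of 15 myelin genes lower with 1 higher (−0.34 against −0.37).

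Tested directly, the change under CR2-Crry minus that under PBS passed the threshold in no probe (limma, 0 of 740, percent called 0), and limma voom on the recovered counts also called 0. The test without moderation called 0 too, but it called only 1 probe between the days in CR2-Crry TBI, so its 0 adds little. The smallest adjusted p was 0.114. At an unadjusted p under 0.05 there were 144 probes, 128 with a difference above 0, which for a falling gene means a smaller decrease under CR2-Crry, and 16 below 0. The difference was above 0 for 515 probes (69.6%) and for 137 of the 165 probes that fell under CR2-Crry, with a median of 0.103 over all tested probes. These counts are given on the authors' scaling alone. Centring moved the PBS changes up by 0.389 and the CR2-Crry changes by 0.232, and median-of-ratios scaling by 0.159 and 0.072. Every difference is therefore lower under both of these scalings, by the same amount for all probes. Those near 0 can turn sign, while the larger ones keep theirs. The count depended on single libraries: without CR2-Crry day 28 replicate 2, 79 probes were called (76 above 0 and 3 below), without PBS day 28 replicate 2, 27 were, and without PBS day 7 replicate 3, 3 were. With sample weights 78 were called, 71 above 0 and 7 below.

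Among the probes with the smallest p for the difference, Ifi30, a lysosomal thiol reductase of antigen processing, was 467, 450.4, and 489.6 on day 7 and 360.2, 232, and 312 on day 28 under CR2-Crry, and 871, 923, and 725 and then 249.5, 339, and 256 under PBS. All PBS samples of day 7 were above all CR2-Crry samples of that day, while the day 28 groups overlapped. The difference was 0.92 (SE 0.20, n = 3 per group, unadjusted p = 0.000263, limma adjusted p = 0.114). The scavenger receptor Msr1 had a difference of 1.10, with 104, 127, and 139 on day 7 under CR2-Crry against 265, 187, and 235 under PBS, and overlapping values on day 28. Vim (0.76), Srgn, a proteoglycan of secretory granules (0.70), and Lgmn (0.34) followed. Below 0, Ttr, the thyroxine carrier made by the choroid plexus, had a difference of −1.89 (SE 0.52, adjusted p = 0.114). It was 2342, 2431, and 2084 on day 7 and 2158, 2850.0, and 2419 on day 28 under CR2-Crry, and 1056, 308, and 1547 and then 3219, 3195, and 3154 under PBS, so the PBS day 7 samples were the low ones. Mal, a proteolipid of compact myelin, was 4038, 3834, and 3670.2 and then 3176, 3120.4, and 2703 under CR2-Crry, and 3097, 3414, and 3329 and then 3455, 3084, and 3329 under PBS (difference −0.37, SE 0.11), lower on day 28 without overlap under CR2-Crry and overlapping under PBS.

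The probes that rose under CR2-Crry were set beside PBS as well. Lcn2 was 825, 2754, and 1059 on day 7 and 1239, 3317, and 1171 on day 28 in PBS TBI, Steap4 109, 198, and 118 and then 100.4, 244, and 111, and probe_76 473, 827, and 707 and then 509, 1363, and 697. In PBS TBI the days overlapped in all 3, and none was called (log2 0.33, 0.03, and 0.27). The CR2-Crry day 7 samples lay below all PBS day 7 samples for each of them. The differences of the changes were 2.77 (SE 1.41, unadjusted p = 0.0651) for Lcn2, 1.86 (SE 0.59, unadjusted p = 0.0053) for Steap4, and 1.82 (SE 0.53, unadjusted p = 0.003) for probe_76, and none passed the adjusted threshold. Trem1 differed by 1.41 (unadjusted p = 0.00381), Il1r2 by 0.99 (0.00694), and Spib, which rose in both treatments, by 0.28 (0.349).

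**Figure D5:**
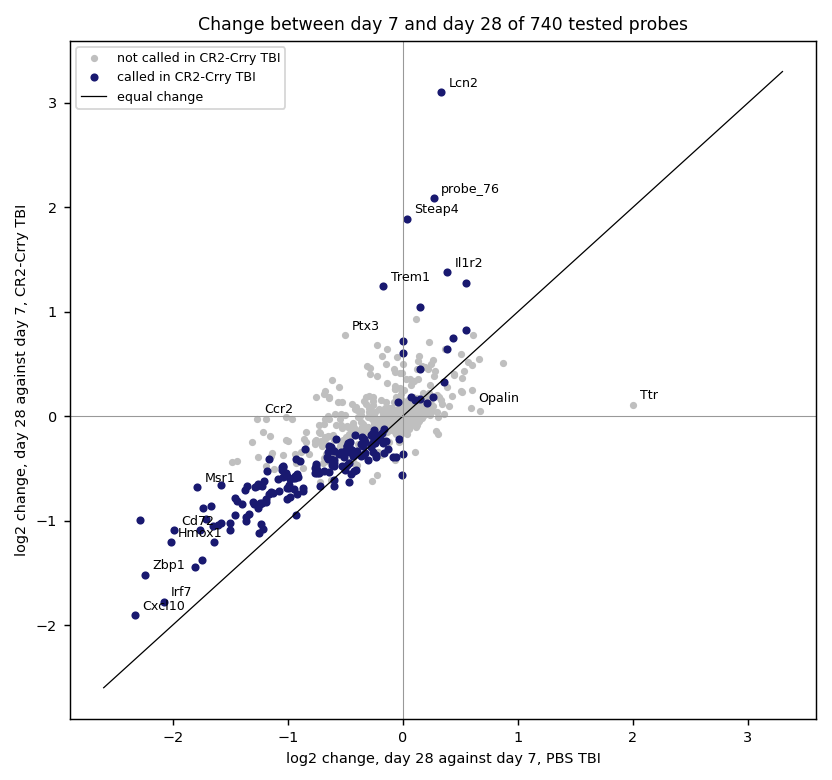
Log2 change between day 7 and day 28 in PBS TBI (x axis) against that in CR2-Crry TBI (y axis) for the 740 tested probes, with a line of equal change and selected genes labelled. On the authors' scaling most falling probes lie above the line, with Cxcl10 at −2.33 under PBS and −1.91 under CR2-Crry. Lcn2, Steap4, and probe_76 stand above it at 3.10, 1.89, and 2.09 under CR2-Crry.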

How the data were processed

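Right hemisphere RNA was run on the nCounter panel by the study. The deposited values were signal normalized by the authors in nSolver, on a linear scale. The methods state background thresholding and scaling to the geometric mean of 11 housekeeping genes, but the values show no common floor (the lowest was 2.14, and a sample's lowest value occurred at most 3 times). In each sample at least 99.87% of values were whole multiples of 1 step (tolerance 0.0075), and totals in steps gave the depth. All values were taken to log2 without a pseudocount, and probes over 20 in at least 3 of 21 samples were kept. A limma 3.58.1 model (R 4.3.3) with a mean for each of the 7 groups, all 21 samples, and moderation with a trend was fitted, Benjamini-Hochberg adjustment ran over 740 probes, and calls were made at an adjusted p under 0.05. SE is the standard error of a log2 change. Python 3.11.15 with numpy 2.4.6, pandas 2.3.3, and matplotlib 3.10.9 made the summaries and figures, and the fit was tested on simulated data. A symbol was used where the probe table paired 1 with a probe. Groups were taken from the labels, which number 3 replicates in each and name no litters or batches.

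The members compared and the gene lists, 27 with at least 5 tested members, were chosen with earlier results of these data known. Named genes were the 15 lowest and 15 highest called changes without overlap, the 5 highest and 5 lowest differences from PBS (by the smallest p where none was called), all complement genes, markers, and up to 4 members per list, and other list members are given by their values. For the 15 lowest and 15 highest, the lack of overlap was part of the choice and is no further evidence. Alternatives were no trend, fewer groups, sample weights, no moderation, adjustment over probes under 0.05 alone as in the study, a pseudocount of 20, other filters, centring on the sample median, the replicate number as a block and leaving out each sample. Limma voom on recovered counts and median-of-ratios scaling were chosen after seeing the data.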

Additional observations from a re-analysis of the deposited data

How the results depend on the processing

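Total counts of calls kept within 1.5 times of those reported except as given here. Between day 28 and day 7 in CR2-Crry TBI, the test without moderation called 1 probe (0 higher, 1 lower), and median centring called 331 (255 higher, 76 lower). Probes called higher were 10 with only the 2 groups in the fit, 44 when adjusting over probes under 0.05 alone and 54 with median-of-ratios scaling. Without moderation, PBS TBI had 131 calls between the days and CR2-Crry TBI day 28 against sham 172. The difference from PBS was called in 78 probes with sample weights and in 144 when adjusting over probes under 0.05 alone, which calls each of them by construction. With each sample left out in turn, CR2-Crry calls ran from 130 to 182 (14 to 23 higher, 113 to 167 lower), PBS calls from 282 to 318, calls for the difference from 0 to 79, and calls against sham from 399 to 418 on day 7 and from 333 to 372 on day 28. Of the 145 named genes, median centring turned the sign of 24, and 8 of these were called under 1 of the scalings: Syp 0.19, Slc1a3 0.05, H2-T23 0.17, Hif1a 0.06, Mdm2 0.01, Mbd2 0.11, Rpl29 0.07, and Rps2 0.12. The cause of these dependences was not tested. Samples with the same replicate number had deviations that correlated at −0.144, 0.0262, and 0.115, and those with different numbers ran from −0.168 to 0.16. The labels do not say whether the numbers pair animals, and samples were treated as unpaired. The fit with the replicate number as a block called 178 probes (19 higher, 159 lower). The directions within a total moved with scaling: PBS calls of 45 higher and 289 lower became 346 and 125 after centring and 152 and 201 with median-of-ratios scaling, and calls against sham of 355 higher and 76 lower on day 7 and 328 and 76 on day 28 became 172 and 385, and 172 and 295, after centring. With median-of-ratios scaling, changes against sham were called higher in 232 and lower in 232 probes on day 7, and in 211 and 216 on day 28. EdgeR and DESeq2 were not run. With 3 samples per group and values near 20 holding few molecules, low-level genes are the least precise.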
